A study of Arabidopsis thaliana with 6 samples.

Results

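AT5G14130 and AT2G35380 are class III peroxidase genes of Arabidopsis thaliana that were bright in whole roots and dim in protoplasted, sorted root cells. They were chosen by locus from the results of that contrast, each by the probe set that the platform annotation pairs with that gene alone, which gave 2 probe sets of the 22810 on the array. The whole-root signals and the contrast therefore chose the genes, and their values on it are given as a description, with no test. The 2 genes belong to a list of 73 class III peroxidase genes, of which 55 had a probe set of their own, meaning one that the annotation pairs with that gene alone. Each of the 2 genes had a single such probe set.

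The question of the study was what protoplasting followed by cell sorting does to root expression under iron deficiency. All 6 samples were roots of Columbia seedlings, 6 days after germination, grown on standard medium and then held for 24 hours on medium with 0.3 mM ferrozine, an iron chelator, in place of ferrous sulfate. In 3 samples the whole roots were harvested intact, and in the other 3 the roots were turned into protoplasts, passed through the sorter and collected without selecting any cell type. Every sample, control samples included, was iron-deficient, so no value here bears on iron supply itself. Each was hybridised to 1 Affymetrix array, read as MAS5 signal intensities on a linear scale. Whether the replicates are separate cultures is not stated in the labels. The p-values therefore reflect the spread among these arrays alone, which may be technical, and precision is limited by their number.

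Class III peroxidases are secreted plant enzymes that carry a haem group and act mostly in the cell wall and the vacuole. With hydrogen peroxide they oxidise phenolic compounds, which can couple wall polymers and stiffen the wall or polymerise monolignols into lignin. In another reaction they form reactive oxygen species that can cut wall polysaccharides, and roots are known for expressing many members of the family. NADPH oxidases of the plasma membrane make the superoxide from which apoplastic hydrogen peroxide arises.

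AT5G14130 lies on chromosome 5. Its signal was 744, 855 and 726 on the whole-root arrays of replicates 1, 2 and 3, and 2.34, 11.6 and 25.7 on the sorted-cell arrays of replicates 1, 2 and 3. Every whole-root array was far above every sorted-cell array, and the groups did not overlap. The means were 775 ± 69.6 in whole roots and 13.2 ± 11.8 in sorted cells (SD, n = 3 each), a log2 difference of -6.45 (SE 0.72). A background level was taken on each array as the brightest of 27 control probe sets for Bacillus genes, which was 10.4 to 16.8 on whole-root and 14.3 to 57.4 on sorted-cell arrays. All 3 whole-root arrays and 1 of 3 sorted-cell arrays, that of replicate 3, read AT5G14130 above this level. The fold is thus imprecise, and with every signal raised to at least the background level of its array the log2 difference was -4.36.

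AT2G35380 lies on chromosome 2. Its signal was 603, 576 and 515 on the whole-root arrays of replicates 1, 2 and 3, and 4.35, 6.22 and 23.4 on the sorted-cell arrays of replicates 1, 2 and 3. The groups were again apart, and again the sorted-cell array of replicate 3 was the one above background. The means were 565 ± 45.5 and 11.3 ± 10.5 (SD, n = 3 each), with a log2 difference of -6.04 (SE 0.55), or -3.95 with signals raised to background. In bulk RNA, fewer cells that express a gene and less of its RNA per cell cannot be told apart.

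The SD was larger among whole roots, at 69.6 against 11.8 for AT5G14130 and 45.5 against 10.5 for AT2G35380. Relative to the group mean, the spread was larger among sorted cells, where the means of 13.2 and 11.3 are small and most signals lay below background. The coefficient of variation of AT5G14130 was 8.98% among whole roots and 89.1% among sorted cells, and that of AT2G35380 was 8.06% and 92.8%. Both genes read lowest on sorted-cell replicate 1 and highest on sorted-cell replicate 3, which were also the arrays with the highest and the lowest background level. The log2 ratio of AT5G14130 to AT2G35380, which no scaling of an array can move, was 0.30, 0.57 and 0.50 on the whole-root arrays of replicates 1 to 3, and -0.90, 0.90 and 0.14 on the sorted-cell arrays. The ratios of the 2 groups overlapped, and 2 of the 3 sorted-cell ratios rest on signals below background.

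The rank of a signal within its array gives a view of the same values that does not depend on scaling, although it orders probe signals and not amounts of transcript. Among 22746 probe sets that are no controls, AT5G14130 stood at the percentiles 88.7, 90.3 and 88.5 on the whole-root arrays of replicates 1, 2 and 3. On the sorted-cell arrays it stood at 2.95, 18.4 and 32.7. The percentiles of AT2G35380 were 85.8, 85.2 and 83.5 on whole-root arrays and 7.37, 13.6 and 31.1 on sorted-cell arrays. Both probe sets thus went from the bright end of the array to its lower part in all 3 sorted-cell samples.

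**Figure D1:**
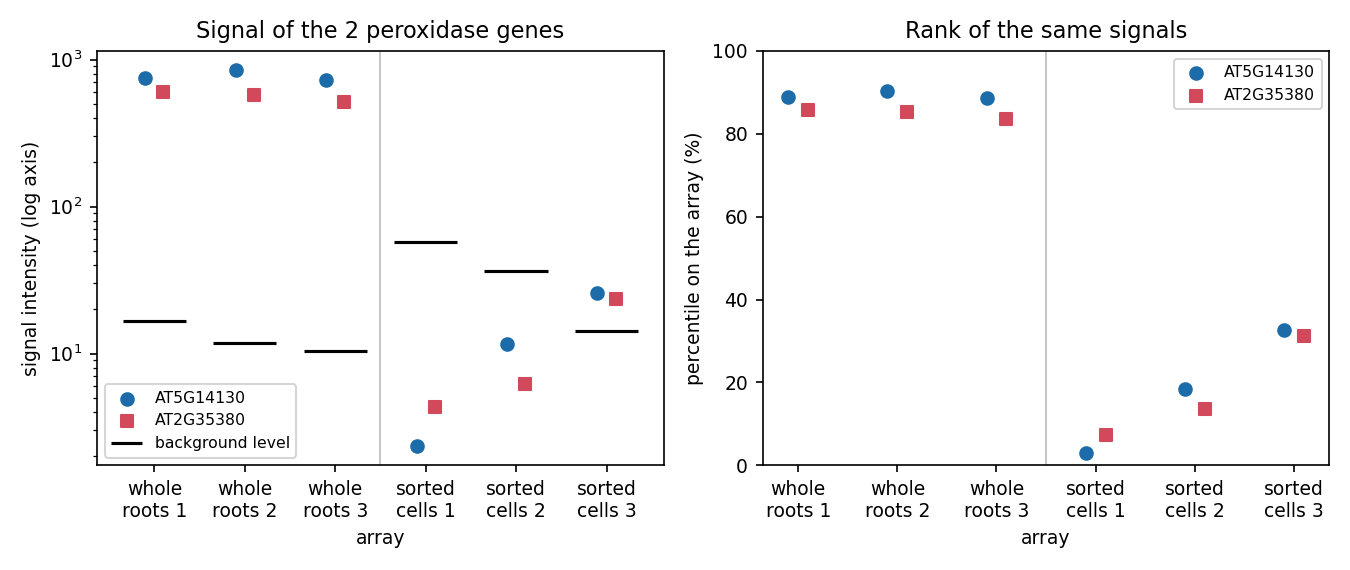
Signal intensity (left, log axis) and percentile among non-control probe sets of the same array (right) of AT5G14130 (circles) and AT2G35380 (squares) on each of the 6 arrays; black bars mark the background level of each array. Whole-root signals lie between 515 and 855, all above background, and sorted-cell signals between 2.34 and 25.7. Among the sorted-cell arrays, only that of replicate 3 reads the genes above its background level.

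The arrays differed in technical values that moved with the groups, and the part of these in the results was not tested. Trimmed by 2% on either side, array means were 250.018 to 250.026, so the deposited values appear scaled to one target. The 18 probe sets for bacterial and phage transcripts that are added at hybridisation nevertheless read higher on all sorted-cell arrays, with a median log2 difference of 1.59, a geometric mean of 436 to 476 on whole-root and of 853 to 2310 on sorted-cell arrays, and the highest value on sorted-cell replicate 1. Setting these controls equal on all arrays, an alternative added after the data were seen, moved the median of all tested probe sets from -0.16 to -1.78 on the log2 scale. That scaling puts 1 shared shift into every probe set of an array, and the shift differed among sorted-cell arrays. Its limma p-values therefore do not measure the spread among 3 arrays a group. For AT1G68850 the limma adjusted p was 2.71e-38 under it, against 1.46e-05 on the deposited scale. Calls under that scaling are given as a description. The log2 excess of 3′ over 5′ signal, a sign of RNA length, was 1.60 to 1.85 for actin on whole-root and 3.37 to 5.53 on sorted-cell arrays. The gap was smaller for GAPDH, at 0.39 to 0.64 and 1.20 to 2.46, and for ubiquitin, at 1.79 to 1.97 and 2.09 to 3.49. All of these controls were largest on sorted-cell replicate 1. Of the root hair markers, 3 of 17 had a probe set of their own in the annotation. Their summed signal was 2491 to 3268 in whole roots and 304 to 474 in sorted cells, where XTH26 read below background on every array. For ground tissue (3 of 4 markers) the summed signal was 401 to 452 and 48.0 to 110, for green tissue (2 of 4) 503 to 569 and 68.2 to 141, and for the root cap (1 of 4) 187 to 222 and 3069 to 6875. The ground tissue markers JKD and AT1G09750 were lower in sorted cells. The third, AT1G62500, was too dim to be tested and overlapped between the groups, at 18.2 ± 5.73 and 21.9 ± 5.80 (SD, n = 3 each). None of the stele or non-hair markers had a probe set of its own in the annotation, which leaves 8730 probe sets unlisted.

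Both genes stood lower in sorted cells under every setting run. Leaving out 1 array at a time, the log2 difference of AT5G14130 lay between -7.21 and -5.48 and that of AT2G35380 between -6.76 and -5.55. With the hybridisation controls set equal they stood at -8.06 and -7.65. Relative to the median of all tested probe sets the differences were -6.28 and -5.87. These are the same on either scale by construction, since that scaling shifts every probe set of an array alike. Adding 64 to each signal before the log, which weighs down dim values, gave -3.45 and -3.07.

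**Figure D2:**
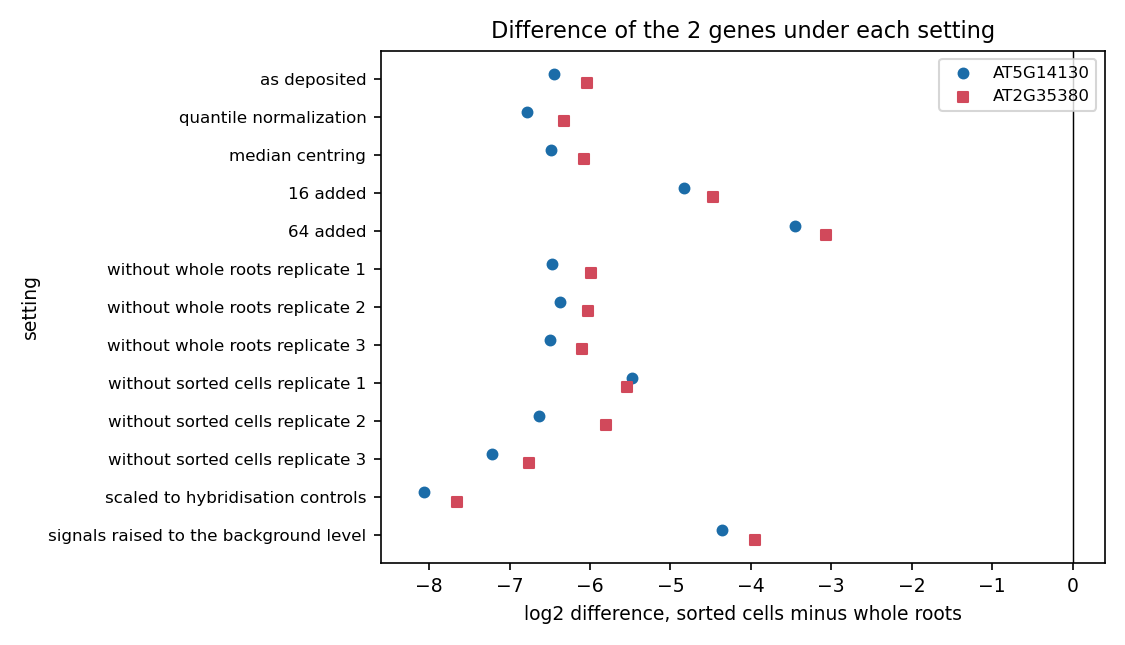
Log2 difference, sorted cells minus whole roots, of AT5G14130 (circles) and AT2G35380 (squares) under each setting listed on the vertical axis; the line marks no difference. All points lie below 0, from -8.06 with hybridisation controls set equal to -3.07 with 64 added before the log.

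The rule that chose the 2 genes named no limit on size, but they were taken from the results of this contrast. Their large falls are therefore part of the choice. Genes with differences of like size were AT5G37690 and the cineole synthase gene TPS-CIN, which read below background on all 3 sorted-cell arrays and were at least 21.2-fold and at least 16.4-fold lower, and AT4G24140 (-6.43), with 1 of 3 sorted-cell arrays above background. Since most of these sorted-cell signals lay below background, they give no order among the genes. Pattern likeness was measured as the Euclidean distance between log2 signals over the 6 arrays, after each probe set's mean was subtracted. Only tested probe sets paired with 1 gene alone were compared. Among these 7304, the one nearest to AT5G14130 was that of AT2G35380, at a distance of 1.38, where the median distance was 8.24. TPS-CIN (1.98), AT3G50400 (2.15), AT5G37690 (2.16) and AT5G37990 (2.36) followed. Nearest to AT2G35380 was AT3G50400 (1.22), followed by AT5G14130 (1.38), AT5G37690 (1.55), AT4G38080 (1.76) and AT1G64590 (1.84), where the median distance was 7.58. AT3G50400 and AT5G37690 stood on both lists. AT3G50400 read 661, 788 and 677 in whole roots and 10.3, 11.0 and 18.5 in sorted cells, where only replicate 3 lay above background. AT1G64590 differed from the rest in that all 3 sorted-cell arrays, at 64.5, 69.7 and 80.1, read above background, against 2830, 2802 and 2656 in whole roots. These distances describe 6 arrays in 2 separate groups, are governed by the fall between them, and carry no test. Both genes were chosen on that fall, so their nearness to each other follows from the choice. The order of the near patterns rests on sorted-cell signals that lay mostly below background.

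**Figure D3:**
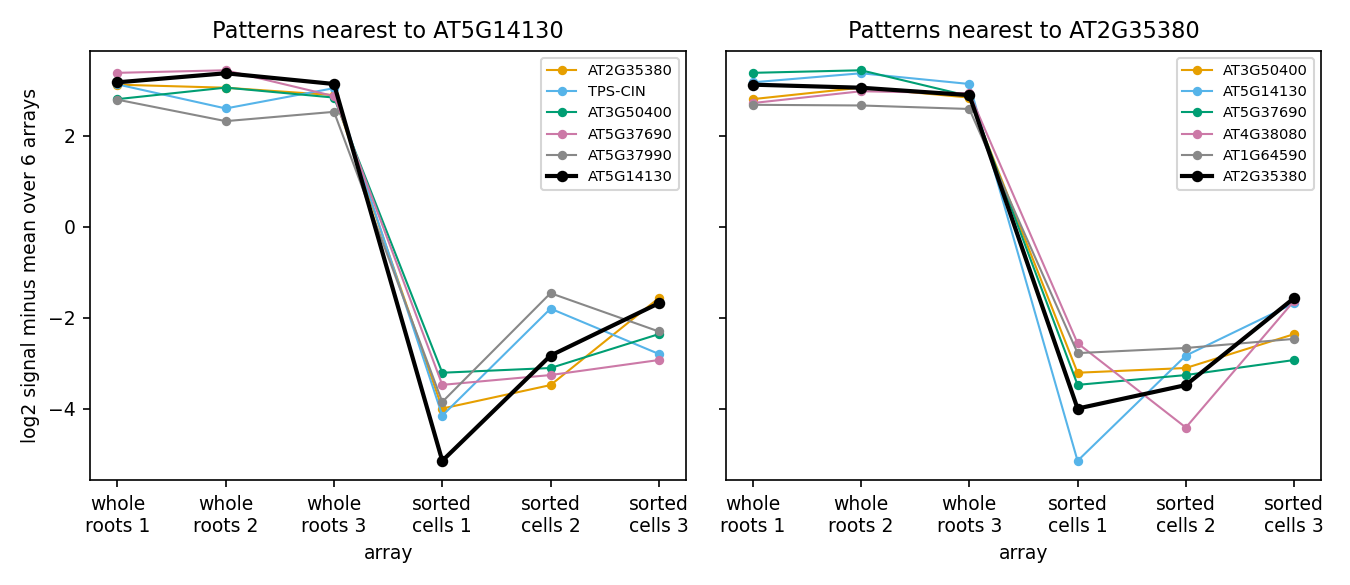
Log2 signal minus its mean over the 6 arrays, by array, for AT5G14130 (left, black) and AT2G35380 (right, black) and the 5 tested genes with the smallest Euclidean distance to each. Lines lie close together on the whole-root arrays and spread on the sorted-cell arrays, where most signals are at or below background.

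Genes beside the 2 loci on the chromosome were compared by their place in the reference gene table. AT5G14120, next to AT5G14130, read 3409, 4099 and 4865 in whole roots and 764, 713 and 953 in sorted cells, and fell by 2.34 on the log2 scale (SE 0.21; limma adjusted p = 5.08e-05). AT5G14150, at the next place but one on the other side, was at 236 ± 34.5 and 306 ± 149 (SD, n = 3 each), with overlapping groups. Around AT2G35380 the signals of AT2G35360 (73.9 ± 4.71 and 80.3 ± 15.4) and AT2G35410 (73.4 ± 12.3 and 81.5 ± 21.6) overlapped between the groups as well (SD, n = 3 each). AT2G35390, next to AT2G35380, was too dim to be tested and read 2.59, 2.97 and 9.35 in whole roots and 21.4, 23.1 and 17.3 in sorted cells. Its groups did not overlap, with sorted cells higher, but sorted-cell replicate 3 was its only array above background.

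The rest of the family split in both directions. Besides the 2 genes, 53 of the 71 other listed peroxidase genes had a probe set of their own, and 34 of these were tested, since the dimmest 40% of probe sets, ranked by their mean signal, did not enter the fit. By limma, at a Benjamini-Hochberg adjusted p under 0.05 over all 13647 tested probe sets, 14 fell, 12 rose and 8 did not pass, but with hybridisation controls set equal 20 fell and 2 rose. Over all tested probe sets 30.7% fell and 24.7% rose, 55.4% in all, and 70.6% fell and 4.09% rose with those controls set equal. Counts under that scaling rest on p-values with the limit given above. The family shares of 14 and 12 in 34 are 41.2% and 35.3%. The median log2 difference of the 34 genes was -0.0016, against -0.16 over all tested probe sets. The differences ran from -4.85 to 4.86, so both signs reached large sizes within the same family. Called falls of at least 2-fold numbered 12 of the 34 genes and called rises of that size 12 of the 34 (35.3% each), where 21.1% and 18.4% of all tested probe sets passed that limit. Of the 34 genes, 14 lay wholly lower and 12 wholly higher in sorted cells (41.2% and 35.3%), where 36.5% and 28.8% of all tested probe sets did so.

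**Figure D4:**
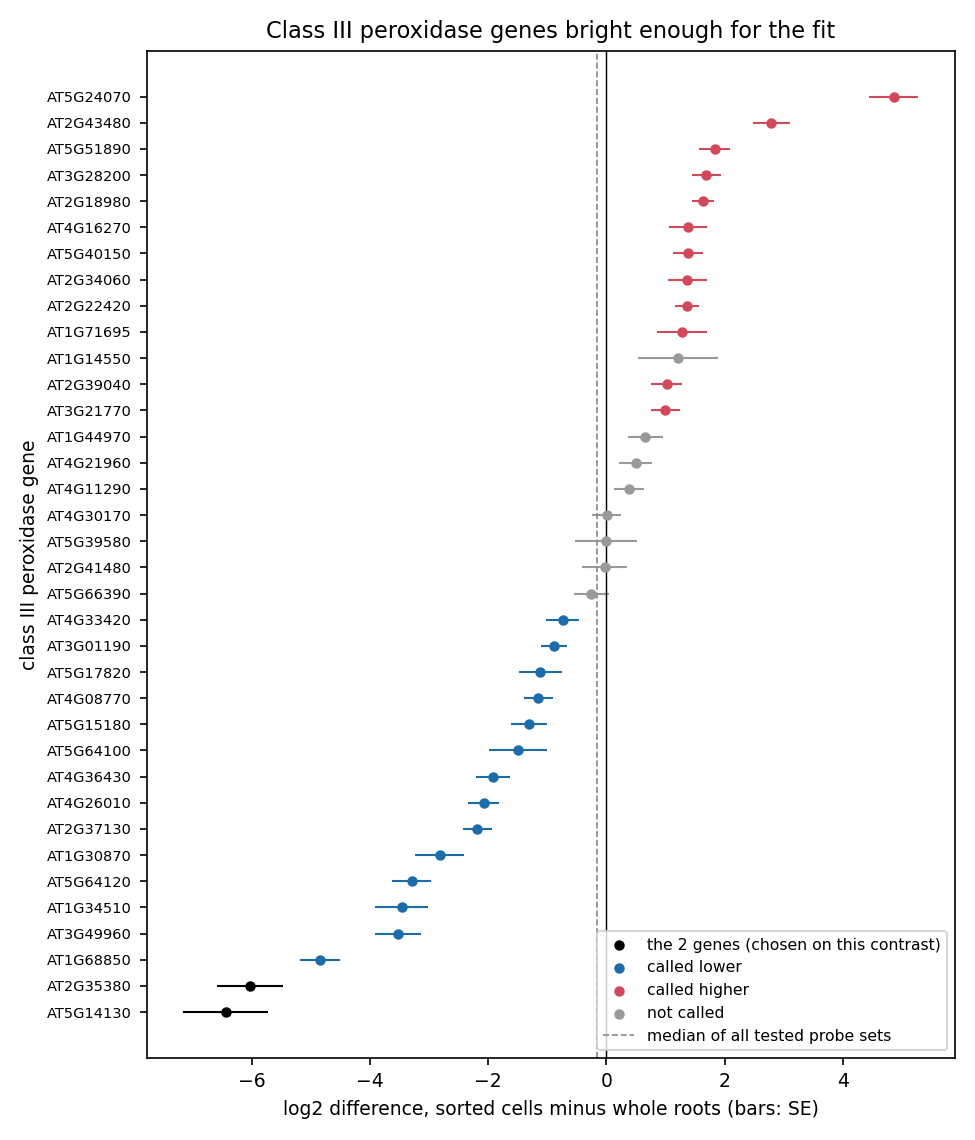
Log2 difference, sorted cells minus whole roots, of the 36 class III peroxidase genes bright enough for the fit, on the deposited scale, ordered by size; points are the difference of the group means, bars the SE of the fit. AT5G14130 and AT2G35380, chosen on this contrast and not tested, are black, and the colours of the other 34 give the limma call at an adjusted p under 0.05. Differences run from -6.45 to 4.86, and the dashed line marks the median of all tested probe sets at -0.16.

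Among the peroxidase genes with a probe set of their own, the fall of AT1G68850 came next after those of the 2 genes. A probe set shared by AT2G38390 and AT2G38380 fell further (log2 difference -5.56). AT1G68850 read 677, 562 and 625 in whole roots and 36.5, 18.8 and 14.5 in sorted cells, with 1 of 3 sorted-cell arrays above background, a log2 difference of -4.85 (SE 0.33; limma adjusted p = 1.46e-05). Here sorted-cell replicate 1 was the highest of its group, where AT5G14130 and AT2G35380 were lowest, but on that array all of these signals lay below background. AT3G49960 fell from 284, 618 and 675 to 44.9, 27.8 and 61.7 (log2 difference -3.53, SE 0.39; limma adjusted p = 0.000125), also with 1 of 3 sorted-cell arrays above background. AT1G34510 fell from 484, 661 and 1111 to 126, 39.1 and 53.2 (-3.47, SE 0.45; limma adjusted p = 0.000262). Whole-root replicate 1 was the lowest of its group for both, whereas the 2 genes chosen here varied little among whole roots.

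AT5G64120, listed as peroxidase 71, fell from 1849, 3690 and 3490 to 408, 218 and 283 (log2 difference -3.30, SE 0.33; limma adjusted p = 7.12e-05). It stands in a row with AT5G64110 and AT5G64100 on the chromosome. AT5G64100 was 2.82-fold lower (SE 0.49 on the log2 scale; limma adjusted p = 0.0281), but lost its call without any one whole-root array (0.0554, 0.0648 and 0.0820 without replicates 1, 2 and 3) and without sorted-cell replicate 3 (0.0664). AT5G64110 was too dim to be tested and read 63.2 ± 11.6 and 15.5 ± 10.6 (SD, n = 3 each), below background on every sorted-cell array. The other falls were those of AT1G30870 (-2.82), AT2G37130 (-2.18), AT4G26010 (-2.08), AT4G36430 (-1.92), AT5G15180 (-1.31), Prx37 (-1.15), AT5G17820 (-1.12), AT3G01190 (-0.89) and AT4G33420 (-0.74). AT2G37130 and AT1G30870 read above background on every sorted-cell array, at 1149 ± 366 and 672 ± 348 (SD, n = 3 each), unlike AT5G14130 and AT2G35380. For AT5G17820 the call ended on leaving out any 1 whole-root array (limma adjusted p = 0.0502, 0.0928 and 0.0574 without replicates 1, 2 and 3) or sorted-cell replicate 2 (0.0512). AT4G33420 lost it under 10 of 17 settings, among them quantile normalization (0.0831) and median centring (0.0621), and reached 0.153 without whole-root replicate 2.

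Among the rises on the deposited scale, AT5G24070 was the largest. It read 25.8 to 40.6 in whole roots and 2027, 611 and 839 in sorted cells, with all arrays above background and no overlap (log2 difference 4.86, SE 0.41; limma adjusted p = 3.56e-05). AT2G43480 rose from 67.5, 39.4 and 47.6 to 261, 519 and 310 (2.79, SE 0.31; limma adjusted p = 0.000132). These are the 2 genes that also rose with hybridisation controls set equal, at 3.25 and 1.18. AT5G51890 read 734, 718 and 535 in whole roots and 1680, 2390 and 3181 in sorted cells (1.83, SE 0.27; limma adjusted p = 0.000504), and AT3G28200 read 199, 113 and 151 and then 420, 554 and 490 (1.69, SE 0.25; limma adjusted p = 0.00051). With hybridisation controls set equal they stood at 0.22 and 0.076 and did not pass.

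The other 8 rises lay between 1.00 and 1.64 on the deposited scale, and none of them passed as a rise with hybridisation controls set equal. AT2G18980 was the largest of them, from 1060 ± 54.1 to 3316 ± 470 (SD, n = 3 each). The rise of AT1G71695 (1.28) no longer passed after quantile normalization (limma adjusted p = 0.0507), on leaving out whole-root replicate 1, 2 or 3 (0.0926, 0.0514 and 0.0680) or on leaving out sorted-cell replicate 1 or 3 (0.0638 and 0.104). Of the 8 genes that did not pass, PRXR1 averaged 4101 ± 910 among whole roots against 5864 ± 1723 among sorted cells, and AT5G66390, listed as peroxidase 72 and known for a part in lignification, at 1863 ± 99.1 and 1668 ± 788 (SD, n = 3 each). PRXR1 passed as a rise without sorted-cell replicate 1 (0.76; limma adjusted p = 0.00967), and AT5G66390 as a fall without sorted-cell replicate 3 (-0.62; limma adjusted p = 0.0297). With hybridisation controls set equal, both fell, with log2 differences of -1.12 and -1.87 (limma adjusted p = 0.0222 and 0.00168). The limit given above for the p-values of that scaling holds here and for the genes named below.

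The 19 untested peroxidase genes with a probe set were dim. None of them read above background on all 3 sorted-cell arrays, 4 did on all 3 whole-root arrays, and 6 did on no array. The groups lay apart for 7 of them, 2 lower and 5 higher in sorted cells, where 7.86% and 21.9% of all 9099 untested probe sets lay wholly lower and wholly higher. Of the 5 higher genes, 2 read above background on no array.

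In the annotation, which leaves 8730 probe sets unlisted, genes that supply or share the substrates of these enzymes had few probe sets of their own. Of 10 NADPH oxidase genes 3 had one, and all 3 fell, where 30.7% of all tested probe sets fell: AT4G25090 from 259, 336 and 268 to 78.4, 26.7 and 41.2 (log2 difference -2.69), AT4G11230 from 107, 112 and 116 to 38.5, 24.6 and 18.6 (-2.10) and AT1G19230 from 305, 237 and 236 to 68.7, 72.6 and 104 (-1.68), with limma adjusted p = 0.000363, 0.00131 and 0.000413. Sorted-cell arrays above background numbered 2, 1 and 3 for these genes. Of catalase and ascorbate peroxidase genes, which remove hydrogen peroxide, 1 of 11 was tested, and SAPX of the chloroplast stroma, at 710 ± 103 and 665 ± 70.6 (SD, n = 3 each), did not pass on the deposited scale but passed as a fall with hybridisation controls set equal (-1.70; limma adjusted p = 0.00686). No superoxide dismutase gene had a probe set of its own in the annotation, which does not show that the array lacks one.

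In monolignol synthesis, which makes a substrate of wall peroxidases, 2 of 17 genes were tested. HCT fell by 0.57 on the log2 scale (limma adjusted p = 0.0346; 0.0506 to 0.139 in the 8 of 16 settings that ended the call), and CCR2 (0.18) did not pass, although with hybridisation controls set equal it passed as a fall (-1.43; limma adjusted p = 0.00554). The laccase gene LAC16, whose enzyme family also oxidises monolignols, was too dim to be tested, averaging 61.7 ± 6.20 among whole roots and reading below background on every sorted-cell array, at least 1.99-fold lower. In the list for the Casparian strip and suberin, the endodermal barriers, 2 of 27 genes were tested and both fell, again beside 30.7% of all tested probe sets. AT2G48130 read 683, 768 and 704 in whole roots and 103, 75.5 and 117 in sorted cells (-2.89; limma adjusted p = 2.05e-05), and GSO1, a receptor kinase gene needed for that barrier, fell by 0.65 on the log2 scale (limma adjusted p = 0.0396; 0.0504 to 0.113 in the 8 of 16 settings that ended the call). Both tested root hair markers, the expansin genes EXPA18 (-3.33) and EXPA7 (-2.31), fell, beside the same 30.7%. AT2G48130, EXPA18 and EXPA7 read above background on every sorted-cell array, unlike AT5G14130 and AT2G35380.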

How the data were processed

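The deposited table holds signal intensities on a linear scale, 1 column per array, produced by MAS5, as the submitters' processing notes state. Its version and scaling target: not given in the sources used here. Among the 22810 probe sets are 64 controls. The platform annotation lists 13513 with 1 gene (13436 matched to the reference gene table, TAIR10.1, used for names and gene order), 503 with several, and leaves 8730 unlisted. Where a gene had more than 1 probe set, that with the highest mean was taken. The background level, the brightest of 27 Bacillus control probe sets on an array, was defined after values were seen.

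The contrast was fitted on log2 intensities using R 4.3.3 and limma 3.58.1 (lmFit, eBayes with a variance trend; sorted cells minus whole roots) on 13647 probe sets, without controls and the dimmest 40%, adjusted by Benjamini-Hochberg and called at an adjusted p under 0.05. The code was run on simulated normal values with far fewer changed probe sets than were called here. That run checks the code and does not bear on the calls. Further steps used Python 3.11.15, pandas 2.3.3 and numpy 2.4.6 and drawn with matplotlib 3.10.9.

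Alternatives were quantile normalization, median centring, 16 or 64 added before the log, no filter or a 60% filter, no trend, a robust fit, a replicate block, leaving out each array, and a 2-fold limit; hybridisation-control scaling and signals raised to background were added after seeing the data. The members and gene lists were chosen with earlier results of these data known. The family list was compiled from general knowledge of the family; the reference table itself names 14 of its 73 genes as peroxidases. Genes named were the 2 genes, other genes of the family list (values per array for the 4 largest falls and 4 largest rises), the 5 nearest patterns to each gene, by Euclidean distance of mean-subtracted log2 signals, and from each other list up to 4 called genes and 2 others; flanking genes were taken by position. Sequences of the proteins and promoters, for which a description had been planned, were not used here.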

Additional observations from a re-analysis of the deposited data

Results flagged for a closer look

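The 18 probe sets for transcripts added at hybridisation, which enter no comparison of expression, read higher on sorted-cell arrays, with a median log2 difference of 1.59 (range 1.36 to 2.12), and without overlap of the groups for all 18. Sorted-cell replicate 1 had the highest geometric mean (2310), followed by replicate 2 (1413) and replicate 3 (853), against 436 to 476 on whole-root arrays. AT5G14130 and AT2G35380 were lowest on sorted-cell replicate 1 and highest on replicate 3. The part of this in their values was not tested beyond the scaling by these controls.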

How the results depend on the processing

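The fall of AT5G14130 kept its direction under 12 of 12 settings and stood at -3.45 with 64 added and at -4.36 with signals raised to background, against -6.45. That of AT2G35380 did so too and stood at -4.47 with 16 added, -3.07 with 64 added, -3.95 with signals raised to background and -7.65 with hybridisation controls set equal, against -6.04. The counts of 14 lower and 12 higher peroxidase genes lay at 11 to 14 and 8 to 14 over the 16 alternatives chosen at the outset, but the higher count was 2 with hybridisation controls set equal. Of the 14 falls and 12 rises, 11 and 11 kept their call under every one of these that included the gene, the 2-fold limit aside; the exceptions are AT5G64100, AT5G17820, AT4G33420 and AT1G71695. The 2-fold limit left 12 falls, without AT4G33420 and AT3G01190, and 12 rises.

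With hybridisation controls set equal, AT3G21770, AT2G39040, AT1G71695, AT2G22420, AT2G34060, AT5G40150 and AT4G16270 turned to -0.61, -0.59, -0.34, -0.25, -0.24, -0.23 and -0.23 without passing, while PRXR1 (AT4G21960) turned to -1.12 and CCR2 (AT1G80820) to -1.43 and both passed as falls. SAPX (AT4G08390) passed as a fall there too, at -1.70. Such calls are a description, since the p-values of that scaling do not measure the spread among the arrays. Uncalled values also changed sign for AT4G21960 with quantile normalization (-0.055), for SAPX (AT4G08390) with quantile normalization (0.036) and on leaving out 1 array (-0.20 to 0.0086), and for AT1G80820 on leaving out 1 array (-0.29 to 0.73).

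The single call in monolignol synthesis, HCT, was lost (0 calls) with median centring, no filter, no trend, the replicate block and the 2-fold limit, and leaving out 1 array gave 0 to 1. In the Casparian strip and suberin list 1 of 2 calls was left with quantile normalization, median centring, no trend, the replicate block and the 2-fold limit, and 1 to 2 with 1 array left out. LAC16 was called with no filter (1 laccase gene). The cause was not tested in any of these cases.

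Same-numbered arrays of the groups did not deviate together (correlations of deviations -0.29, -0.16 and -0.042 for replicates 1, 2 and 3). With 3 arrays a group these values cannot show whether same-numbered samples share a culture, and the main fit treated the samples as unpaired. With the replicate block 6815 probe sets were called in place of 7564, and the peroxidase counts were 13 lower and 12 higher. With 3 arrays a group and most sorted-cell signals of the 2 genes below background, the size of their falls is known only roughly.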

Other observations

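Some peroxidase genes of the family list share a probe set with another gene and could not be measured singly. The probe set shared by AT2G38390 and AT2G38380 read 1765, 2908 and 3287 in whole roots and 70.4, 32.8 and 69.8 in sorted cells, with 2 of 3 sorted-cell arrays above background (log2 difference -5.56, SE 0.35; limma adjusted p = 1.06e-05). That shared by AT4G37530 and AT4G37520 fell from 1163 ± 184 to 175.8 ± 35.6 (SD, n = 3 each; log2 difference -2.73, limma adjusted p = 3.11e-05). The other such probe sets overlapped between the groups and were too dim to be tested. That of AT2G18150 and AT2G18140 read 46.5, 53.7 and 40.4 in whole roots and 41.4, 43.2 and 48.1 in sorted cells, and that of AT3G42570 and AT3G17070 read above background on no array. The signal cannot be divided between the genes of a pair.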
